A study of Mus musculus with 4 samples.

Results

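The 10 genes described here encode proteins by which enterocytes take up dietary fat and vitamin A and send them to the lymph: the apolipoproteins Apoa1, Apoa4, Apoc3 and Apob, the lipid transfer protein Mttp, the acyltransferase Dgat1, the intracellular carriers Fabp1, Fabp2 and Rbp2, and the fatty acid receptor Cd36. They were chosen by name: a probe set was included where the platform annotation gives it exactly 1 of these symbols. This found 20 of 45101 probe sets and 10 of 18193 genes. In all, 9 genes with 17 probe sets reached the level filter, an intensity of at least 20.9 (the median of all values) on 1 or more arrays. Cd36 did not reach it on any of its 3 probe sets.

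The arrays read RNA of mouse intestinal organoids, self-organising epithelial cultures that were recovered from Matrigel for extraction; all of them carried floxed Apc alleles (Apc fl/fl). The 4 groups were untreated organoids at day 4, organoids given 4-hydroxytamoxifen (4OHT, the drug used to induce recombination of Apc) for 24 h and taken at day 4, untreated organoids at day 6, and 4OHT-treated organoids at day 6. Each group was 1 array, so there is no replicate error within a group, and the small number of arrays limits the precision. The Cre driver, the strain and the number of animals or cultures behind an array are not given in the sources used here. No array holds 4OHT-treated organoids without floxed Apc, so the drug and the recombination cannot be told apart. The brightest Apc probe set was higher with 4OHT, at intensities of 27.2 and 57.7 at day 4 and 99.6 and 170 at day 6 (untreated and 4OHT), and it does not check the recombination, since the removed part of Apc is not known here.

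After a meal, fatty acids and monoglycerides enter the enterocyte, are carried through the cytosol by fatty acid binding proteins and are joined again to triglyceride at the endoplasmic reticulum. Mttp loads that triglyceride onto Apob, the structural protein of the chylomicron, and the particle takes up Apoa4, Apoa1 and Apoc3 before it leaves the cell. In the intestine these genes are known as products of mature enterocytes of the villus, and they are low in the crypt. Apc restrains Wnt signalling.

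On the arrays the 7 epithelial markers read had intensities between 480 and 9544, and none passed the test described below. Of the markers of other cell types, some were under the level filter on all 4 arrays: the liver gene Alb lay between 10.5 and 11.7, the fat cell gene Adipoq between 5.45 and 8.86 and the leukocyte gene Ptprc between 6.23 and 10.9. Others were not, and the brightest of each list reached 37.4 (Ahsg, liver), 137 (Retn, fat cells), 49.6 (Esam, endothelium), 54.0 (Cd3e, T cells) and 59.4 (Acta2, smooth muscle). Summed over each list and ranged over the 4 arrays, 6 hepatocyte markers came to 63.9 to 130, 3 fat cell markers to 47.7 to 154, 5 endothelial markers to 75.9 to 127, 5 immune markers to 72.9 to 130 and 6 fibroblast and muscle markers to 108 to 195, and no marker of these lists passed the test. Of 7 enterocyte markers outside fat handling, 4 fell with 4OHT by that test (Alpi, Slc5a1, Slc2a2 and Krt20), against 2.25% of all genes tested. The summed intensity of the 7 was 1241 and 475 at day 4 and 4345 and 1671 at day 6, untreated and 4OHT in turn. The 3' minus 5' difference of the Actb control, a measure of RNA integrity on the log2 scale, was 0.94 larger in the 4OHT organoids of day 4 and 0.62 larger in those of day 6, and that of Gapdh 0.87 and 0.56. The part of both in the values below was not tested. In bulk organoids, fewer enterocytes and less RNA per enterocyte cannot be told apart.

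With 4OHT, the chylomicron and fatty acid carrier genes were lower, but not to the same degree and not all at the same time. On log2(intensity + 16), the scale of every difference below, at day 4 a reduction of 2-fold or more was found for 5 of the 10 genes (Apoa1, Apoa4, Apoc3, Mttp and Fabp1), against 1.22% of the 13192 genes past the level filter. At day 6, 5 were at least 2-fold lower (Apoa4, Apob, Mttp, Fabp1 and Dgat1), against 2.97%. Apoa4, Mttp and Fabp1 were in both sets, as were 0.796% of all genes. None of the 10 was 2-fold higher on either day, against 1.0% and 0.879%. The median difference of the 10 genes was -0.99 at day 4 and -1.14 at day 6, beside 0.06 and -0.0044 over all genes tested. The 7 enterocyte markers outside fat handling were lowered to a like degree, with medians of -1.13 and -1.27. Of these 7, 4 were at least 2-fold lower at day 4, 6 at day 6 and 4 on both days. Apoa1, Apoa4, Apoc3, Mttp, Fabp1, Fabp2, Rbp2 and Dgat1 were lower on both days at any size, against 26.0% of all genes tested. These 8 kept that direction on each day under the alternatives of filter, probe set, scaling and pseudocount.

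**Figure D1:**
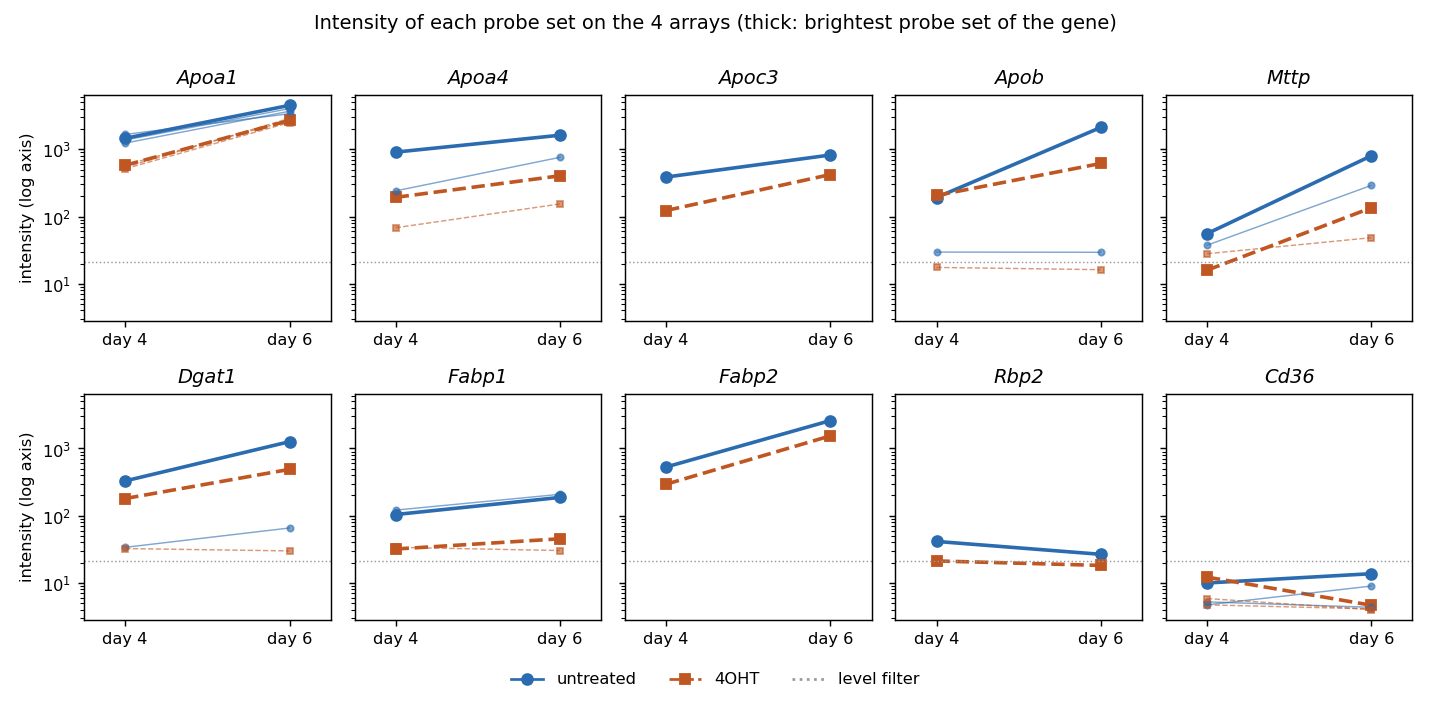
Intensity (log axis) of every probe set of the 10 genes at day 4 and day 6, with untreated organoids as blue circles and 4OHT-treated organoids as orange squares; each point is 1 array, the thick line is the brightest probe set of the gene, and the dotted line is the level filter at 20.9. The 4OHT points lie below the untreated ones on both days for 8 genes, where 26.0% of all genes tested were lower on both days. The points of Apob's brightest probe set part only at day 6, and Cd36 stays under the filter.

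4OHT was tested against untreated over both days, with day as an additive term (limma, Benjamini-Hochberg adjustment over 13192 genes). By it Apoa1, Apoa4, Apoc3, Mttp, Fabp1 and Dgat1 fell, 6 of the 10 genes, against 2.25% of all genes. Fabp2, Apob and Rbp2 did not pass, Cd36 was not tested, and none rose, against 0.970%. All 9 genes tested had an unadjusted p under 0.05 and were lower, where 13.9% of all genes had such a p in either direction. The error of the test comes from how far the days disagree, with 1 residual degree of freedom, and not from the spread of replicate cultures. Beside that 1 stand 15.2 prior degrees of freedom, so each SE is mostly pooled over all genes tested and little the gene's own. None of the 6 passed when low genes were kept in, when 64 was added in place of 16, or when the day term was dropped, where 8, 7 and 2 of the 10 genes had an unadjusted p under 0.05. With any single array left out there was no day term, and 1 arm was read on 1 day only. The differences of these fits therefore mix 4OHT with day. Without the 4OHT array of day 4 they turned to 0.068 for Apoa1 and 0.382 for Fabp2. Without the untreated array of day 6 they turned to 0.852 for Apob and 0.35 for Fabp2.

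Apoa4, Apoc3 and Apoa1 are neighbours on chromosome 9 and encode the exchangeable apolipoproteins of the particle. Apoa4, which enterocytes secrete in response to fat, had intensities of 909 untreated and 193 with 4OHT at day 4, and 1623 and 404 at day 6. It was the most strongly lowered of the 10 genes at day 4, 4.44-fold, rank 4 from the bottom of all genes tested, and was 3.90-fold lower at day 6. Over both days it fell by 2.06 ± 0.21 (SE, limma, adjusted p = 5.24e-05). Its other probe set read 241, 68.1, 761 and 154 in the same order of arrays, differences of -1.61 and -2.20. Both probe sets therefore placed the 4OHT array of day 6 below the untreated array of day 4.

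Apoc3, which slows the clearance of triglyceride-rich particles, read 387 and 123 at day 4 and 824 and 422 at day 6. Apoa1, the main protein of high-density lipoprotein, read 1459 and 579 at day 4 and 4518 and 2695 at day 6 on its brightest probe set. Both were lowered more at day 4 than at day 6, Apoc3 by 2.90-fold and 1.92-fold and Apoa1 by 2.48-fold and 1.67-fold. Over both days Apoc3 fell by 1.24 ± 0.22 (limma, adjusted p = 0.00417) and Apoa1 by 1.03 ± 0.22 (adjusted p = 0.0146). The 4 probe sets of Apoa1 gave differences of -1.48 to -1.24 at day 4 and, each of them smaller in size, -0.74 to -0.33 at day 6. All 4 are of the _x_at or _a_at kinds, which can bind more than 1 transcript. With every probe set as its own row in the fit, only the brightest of the 4 passed (adjusted p = 0.0466, and 0.0925 to 0.156 for the others).

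The neighbouring genes on chromosome 9, taken by position in the RefSeq order, did not share these values. Before Apoa1, the nearest 3 genes measured, Sik3, Pafah1b2 and Sidt2, had 4OHT differences of 0.12, -0.06 and 0.46 on day 4, and of -0.34, -0.36 and 0.42 on day 6. After Apoa4, the next 3, Apoa5, Zpr1 and Bud13, were higher at day 4 by 0.82, 1.09 and 0.92 and differed by -0.11, 0.37 and 0.07 at day 6. None of these 6 passed the test (adjusted p from 0.108 to 0.901). Apoa5 lies next to Apoa4 and is an activator of triglyceride clearance made mainly by the liver; it read 57.7 and 114 at day 4 and 34.3 and 30.6 at day 6, so the 3 intestinal genes and Apoa5 were not on the same side at day 4.

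The 250 bases before the RefSeq start of Apoa4 are shown because it was the most strongly lowered of the 10 at day 4 (mouse GRCm38.p6, chr9:46240594-46240843, plus strand, 5' to 3').
Apoa4: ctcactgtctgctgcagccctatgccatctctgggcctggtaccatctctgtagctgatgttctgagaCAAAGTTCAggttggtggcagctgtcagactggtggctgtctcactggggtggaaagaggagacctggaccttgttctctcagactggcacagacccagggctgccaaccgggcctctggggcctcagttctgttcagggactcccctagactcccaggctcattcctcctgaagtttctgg
Capitals mark a match to CAAAGTNCA, the letters preferred by the enterocyte and liver factors of the HNF4 family. Searched on both strands over 250 bases, that motif is found in 1.19% of 32841 RefSeq promoter windows, and in 3 of the 8 windows of the members that the table holds (Apoa4, Fabp2 and Rbp2). The TCF motif ATCAAAG, found in 3.21% of all windows, is in none of the 8. The motifs were chosen with these sequences known, so the counts among the 8 windows are no test of enrichment. A match describes the letters only, and these arrays do not read binding. On the same arrays Hnf4a itself read 2346 and 2362 at day 4 and 3299 and 2820 at day 6 and did not pass the test (-0.11 ± 0.21, limma, adjusted p = 0.901). Hnf4g, of the same family, read 78.6 and 46.7 at day 4 and 32.9 and 22.5 at day 6. Its differences of -0.59 and -0.35 did not pass either (-0.47 ± 0.21, limma, adjusted p = 0.326). Both genes are named here for the motif, after their values were seen.

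Apob and Mttp act together in the assembly of the particle, and both were lowered more at day 6. Mttp read 55.6 and 15.9 at day 4 and 802 and 135 at day 6. The 4OHT array of day 4 was under the level filter, and the untreated array of day 6 stood far above the other 3. The difference was 2.24-fold at day 4 and 5.41-fold at day 6, the latter rank 20 from the bottom of all genes tested. Mttp fell by 1.80 ± 0.26 over both days (limma, adjusted p = 0.000898). Its other probe set read 37.4, 28.0, 291 and 48.5, a difference of -0.28 at day 4 and of -2.25 at day 6, so the probe sets were alike at day 6 and unlike in size at day 4. In the fit of every probe set, that one did not pass (adjusted p = 0.14). Because the 4OHT reading of day 4 is so low, the added 16 sets much of the sizes that rest on it: with 1 added, the day 4 difference of Mttp was -1.74 in place of -1.16.

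Apob read 192 untreated and 206 with 4OHT at day 4, and 2124 and 617 at day 6. There was thus a difference of 0.10 at day 4, which turned to -0.17 with the mean of its probe sets, and one of -1.76, or 3.38-fold lower, at day 6. The 4OHT difference moved by -1.85 between the days, rank 17 from the bottom of all genes, with no error to set it against. Over both days Apob did not pass (-0.83 ± 0.31, adjusted p = 0.205). A second, dim probe set read 29.6, 17.5, 29.4 and 16.2, with differences of -0.44 and -0.50, so the pattern of the bright one is not seen by the other. The 4OHT difference was at least 2-fold lower at day 6 than at day 4 for Apob and Mttp only among the 10, against 3.15% of all genes, and Mttp did not reach it with 1 added (-0.82) or after quantile normalization.

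Dgat1 catalyses the last step of triglyceride synthesis. It read 329 and 180 at day 4 and 1263 and 489 at day 6. The untreated array was the higher on both days, by 1.76-fold and 2.53-fold, and the gene fell by 1.08 ± 0.22 over both days (limma, adjusted p = 0.00954). A dimmer probe set read 33.8, 32.4, 65.6 and 29.9, with a difference of -0.04 at day 4 and -0.83 at day 6. In the fit of every probe set, it did not pass (adjusted p = 0.507), nor did Dgat1 when the _x_at, _s_at and _a_at kinds were left out.

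**Figure D2:**
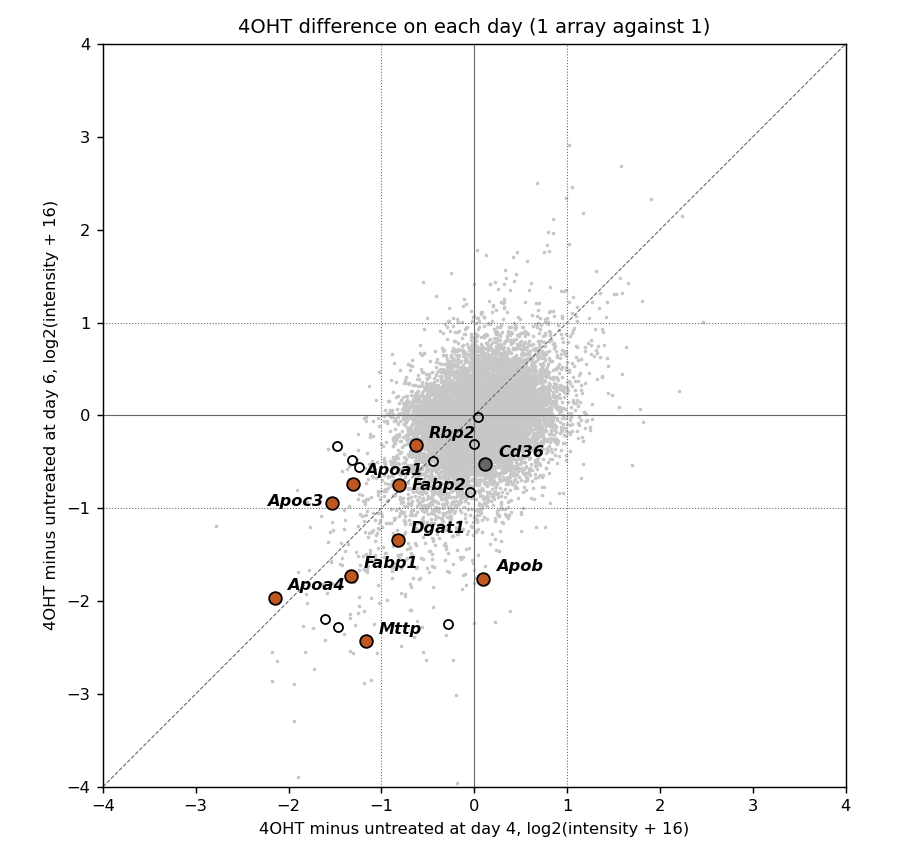
Difference between 4OHT-treated and untreated organoids at day 4 (x axis) against day 6 (y axis), both on log2(intensity + 16), 1 array against 1. Grey points are the genes past the level filter, filled circles the brightest probe set of each of the 10 genes (Cd36, under the filter, in dark grey), open circles their other probe sets, and dotted lines mark 2-fold. Apoa4, Mttp and Fabp1 lie beyond 2-fold on both days, Apoa1 and Apoc3 at day 4, Apob and Dgat1 at day 6.

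Fabp1, Fabp2 and Rbp2 belong to the family of small intracellular lipid-binding proteins. Fabp1, the liver-type carrier of long-chain fatty acids, read 104 and 31.9 at day 4 and 187 and 45.3 at day 6, so both 4OHT arrays lay below both untreated ones. It was 2.51-fold lower at day 4 and 3.31-fold lower at day 6, and fell by 1.53 ± 0.21 (limma, adjusted p = 0.000743). Its other probe set read 121, 33.8, 208 and 30.3, with differences of -1.46 and -2.27. Both of its probe sets passed when every probe set was fitted (adjusted p = 0.00351 and 0.00615).

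Fabp2, the intestinal-type carrier, is read by 1 probe set with 530 and 294 at day 4 and 2601 and 1541 at day 6. The differences of -0.81 and -0.75 were both under 2-fold, and Fabp2 missed the threshold of the test (-0.78 ± 0.21, adjusted p = 0.0518), which it passed after median centring (adjusted p = 0.0322). The difference between Fabp1 and Fabp2 in their response was not tested. Rbp2, which carries retinol in the absorbing enterocyte, was dim, with 41.4 and 21.2 at day 4 and 26.6 and 18.2 at day 6. Its differences of -0.62 and -0.32 did not pass (-0.47 ± 0.21, adjusted p = 0.328), and near the level filter the added 16 understates a change.

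The 250 bases before the RefSeq starts of the 3 carriers are set side by side because these genes of 1 protein family gave unlike values above (mouse GRCm38.p6, all on the plus strand, 5' to 3': Fabp1 chr6:71199629-71199878, Fabp2 chr3:122894822-122895071, Rbp2 chr9:98490287-98490536).
Fabp1: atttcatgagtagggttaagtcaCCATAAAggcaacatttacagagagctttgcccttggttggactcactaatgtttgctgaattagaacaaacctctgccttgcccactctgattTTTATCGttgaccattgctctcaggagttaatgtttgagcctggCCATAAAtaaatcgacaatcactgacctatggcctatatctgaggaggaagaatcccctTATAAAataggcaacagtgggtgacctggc
Fabp2: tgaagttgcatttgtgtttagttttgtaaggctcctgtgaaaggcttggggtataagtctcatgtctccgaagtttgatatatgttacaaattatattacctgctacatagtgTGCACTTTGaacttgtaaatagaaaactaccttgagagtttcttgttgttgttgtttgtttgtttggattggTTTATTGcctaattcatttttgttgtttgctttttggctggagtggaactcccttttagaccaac
Rbp2: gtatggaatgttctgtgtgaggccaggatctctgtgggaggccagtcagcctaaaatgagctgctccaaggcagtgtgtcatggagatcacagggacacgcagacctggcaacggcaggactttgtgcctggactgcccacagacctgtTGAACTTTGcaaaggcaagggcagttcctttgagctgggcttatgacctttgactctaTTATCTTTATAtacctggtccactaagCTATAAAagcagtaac
Capitals mark matches on either strand to CAAAGTNCA, to the TATA box TATAAA (in 12.4% of all windows), to TTTATNG, a form bound by CDX factors (9.81%), and to the GATA motif AGATAA (9.99%). Where the TATA box is preceded by C, it also matches TTTATNG on the other strand, as in Rbp2. Fabp1 holds 3 matches to TTTATNG and a TATA box 30 bases before the start. Fabp2 and Rbp2 hold CAAAGTNCA, 137 and 101 bases before the start counted to the first base of the match, and Fabp1 does not hold these letters in this window. Of the transcription factors, Cdx2, likewise named after its values were seen, read 456 and 448 at day 4 and 712 and 638 at day 6 and did not pass (limma, adjusted p = 0.923).

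Cd36 binds fatty acids at the brush border. Its brightest probe set read 9.97 and 12.2 at day 4 and 13.7 and 4.65 at day 6, and the other 2 lay between 4.01 and 8.97. No level of Cd36 can be told from the dim end of the arrays, so its differences of 0.12 and -0.52 carry no order.

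Most of the 10 genes were higher at day 6 than at day 4 in either arm: 8 were higher in both on their brightest probe sets, all but Rbp2 and Cd36, against 47.4% of all genes. From day 4 to day 6, 6 of the 10 genes were at least 2-fold higher in untreated organoids (Apoa1, Apob, Apoc3, Mttp, Fabp2 and Dgat1), against 24.1% of all genes, and 7 in 4OHT-treated organoids (the same 6 and Apoa4), against 16.4%. None was 2-fold lower in untreated or in 4OHT-treated organoids, against 5.29% and 2.69%. Most other epithelial markers were also higher at day 6. Of the 7 epithelial markers, 5 were 2-fold higher in untreated and 4 in 4OHT-treated organoids. Of the 7 enterocyte markers outside fat handling it was 7 and 5. Median gains, untreated and 4OHT, were 1.34 and 1.44 for the 10 genes and 1.32 and 1.08 for the epithelial markers. The enterocyte markers had 1.69 and 1.52. Mttp was 11.4-fold higher in untreated and 4.74-fold higher in 4OHT-treated organoids, and ranked 16 from the top of all genes in the untreated arm. The 4OHT value starts from the dim reading of day 4 and depends on the added 16, with a difference of 3.01 for Mttp when 1 was added in place of 2.25, while its other probe set was 1.46-fold higher. Apob was 10.3-fold and 2.85-fold higher and ranked 26 in the untreated arm. Fabp2 was 4.80-fold and 5.02-fold higher, nearly the same in both arms, and ranked 120 in the 4OHT arm. Apoa1 was 3.07-fold higher in untreated and 4.56-fold higher in 4OHT-treated organoids, and Apoc3 2.08-fold and 3.15-fold, so that these 2 gained more in the 4OHT arm. Apoa4 (1.77-fold and 2.02-fold), Fabp1 (1.69-fold and 1.28-fold) and Dgat1 (3.71-fold and 2.58-fold) were higher too, while Rbp2 was lower in both arms (-0.43 and -0.12). The dim probe sets of Apob, in both arms, and of Dgat1, in the 4OHT arm, showed no such gain, with differences between -0.07 and -0.0065. The other probe set of Fabp1, of like brightness, was at -0.10 in the 4OHT arm. That of Apoa4 was 3.03-fold higher in untreated and 2.02-fold higher in 4OHT-treated organoids. The counts of 6 and 7 genes therefore differ only by the probe set taken for Apoa4.

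No source used here gives the scaling between the days, and the 95th percentiles of intensity were 314 and 335 at day 4 and 518 and 472 at day 6. The median over all genes moved by 0.16 between the days in untreated organoids, by 0.31 after median centring and by -0.13 after quantile normalization, and by 0.04, 0.18 and -0.15 in 4OHT-treated ones. After median centring, 7 of the 10 genes were 2-fold higher in each arm, against 28.8% and 20.4% of all genes. After quantile normalization it was 5 in each arm, against 12.0% and 9.48%. The 3' minus 5' differences of Actb were smaller at day 6, by 1.24 in untreated and 1.56 in 4OHT-treated organoids, and their part in the gain was not tested.

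**Figure D3:**
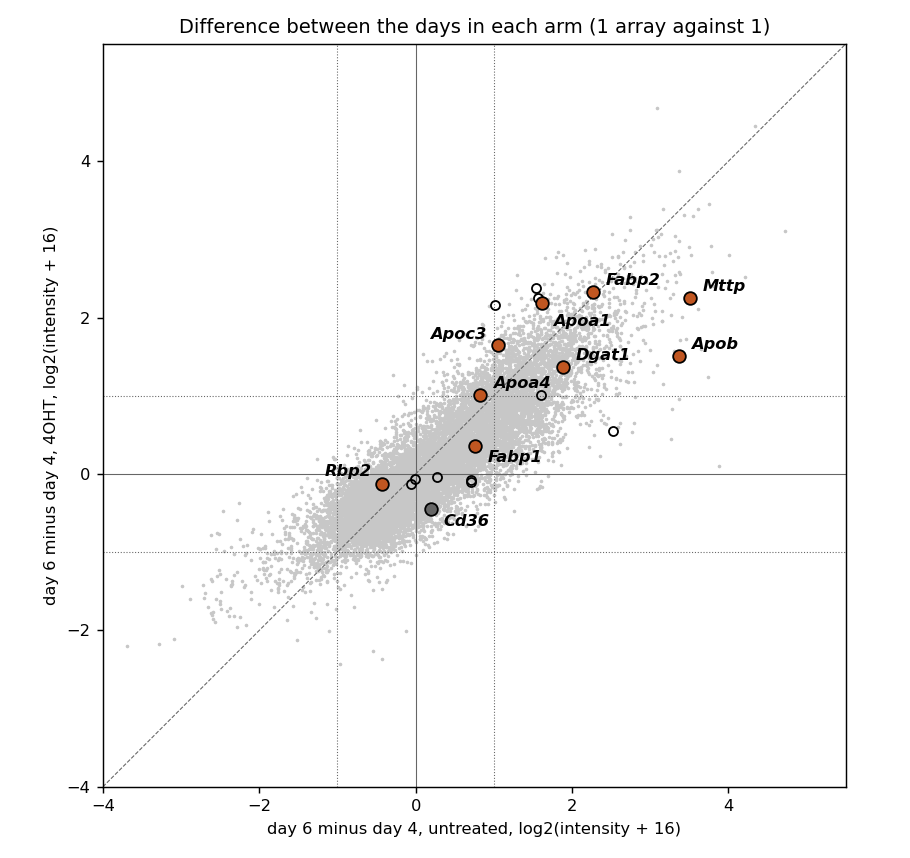
Difference between day 6 and day 4 in untreated organoids (x axis) against 4OHT-treated organoids (y axis), both on log2(intensity + 16), 1 array against 1, with the same symbols as the plot of 4OHT differences. Mttp and Apob lie far to the right of the diagonal, Fabp2 lies on it, and Apoa1 and Apoc3 lie above it.

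Set in order, 8 of the 9 genes past the level filter, all but Rbp2, were highest on the untreated array of day 6, against 34.6% of all genes. Of the 9, 7 were lowest on the 4OHT array of day 4, against 22.3%. The 4OHT array of day 6 stood above the untreated array of day 4 for Apob (by 1.61), Fabp2 (1.51), Mttp (1.08), Apoa1 (0.88), Dgat1 (0.55) and Apoc3 (0.12), and below it for Apoa4 (-1.14), Fabp1 (-0.97) and Rbp2 (-0.75). Over all genes, 56.5% were above. Apoc3 turned to -0.43 after quantile normalization, and Dgat1 came to 0.0034. Apoa4, Fabp1 and Rbp2 stayed below the earlier untreated level under median centring and quantile normalization too.

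Beyond the 10 genes, 66 genes of 9 lists on fat, sterol and retinoid handling were measured, and 57 were tested. Of these 57, 11 fell (19.3%, beside 2.25% of all genes) and none rose. At an unadjusted p under 0.05, 17 were lower and 1 higher, where 13.9% of all genes had such a p in either direction. At least 2-fold lower were 3 at day 4 (5.26%, beside 1.22%) and 15 at day 6 (26.3%, beside 2.97%). The medians over the 66 were -0.08 at day 4 and -0.31 at day 6. The lists were put together with earlier results of these data known. The count of 11 became 0 with low genes kept in or 64 added, and 3 with the filter set on the mean.

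Of 9 genes of chylomicron assembly and export 8 were tested and 4 fell, against 2.25% of all genes. Tm6sf2, which helps to lipidate the particle, read 87.1 and 36.1 at day 4 and 296 and 101 at day 6, and fell by 1.20 ± 0.22 (limma, adjusted p = 0.00422). The lipid droplet protein gene Cideb fell by 1.01 ± 0.23 (adjusted p = 0.021), and Sar1b, the small GTPase of the vesicles that carry chylomicrons, by 0.80 ± 0.21 (adjusted p = 0.0483). Pla2g12b, named after its values were seen, fell by 0.97 ± 0.24 (adjusted p = 0.0368). Like Mttp, Cideb differed more at day 6 (-1.38) than at day 4 (-0.64).

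Of 9 triglyceride synthesis genes 2 fell, against 2.25% of all genes. Mogat2, which makes diacylglycerol from absorbed monoglyceride ahead of Dgat1, read 127 and 78.7 at day 4 and 788 and 221 at day 6, and fell by 1.18 ± 0.25 (adjusted p = 0.015). Gpat3, of the glycerol phosphate route, fell by 0.91 ± 0.24 (adjusted p = 0.0497), while Agpat1 differed by 0.50 ± 0.21 the other way without passing. None of 6 genes of fatty acid uptake and activation passed. Of them 4 were lower on both days, beside 26.0% of all genes tested. Acsl3 was at -0.60 and -0.64, Slc27a4 at -0.25 and -0.78, and the acyl-CoA binding protein gene Dbi at -0.16 and -0.42. Nor did any of 4 sterol genes pass, with the cholesterol uptake gene Npc1l1 at -0.09 and -1.44, Abcg5 at -0.27 and -0.56 and Abcg8 at -0.12 and -0.37.

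Of the 8 other members measured of the carriers' family, 2 fell, against 2.25% of all genes tested. Fabp6, the bile acid carrier of the ileum, read 344 and 92.8 at day 4 and 2629 and 383 at day 6, and fell by 2.23 ± 0.24 (limma, adjusted p = 8.66e-05), 3.31-fold at day 4 and 6.63-fold at day 6. Rbp7 fell by 1.42 ± 0.30 (adjusted p = 0.0126), with 28.8 and 14.4 at day 4 and 129 and 13.9 at day 6; it passed the level filter only through the untreated arrays, so the filter favoured a fall. Of the other 6, 3 were not tested and 3 did not pass, with Fabp3 at 0.26 and 0.22. In retinoid handling, 1 of 5 tested fell, against the same 2.25%. This was the retinol dehydrogenase gene Rdh7, by 1.58 ± 0.34 (limma, adjusted p = 0.0138), with -0.52 at day 4 and -2.64 at day 6. Dhrs3 was at -0.04 and -0.37.

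None of 5 tested other apolipoproteins passed, with Apom at 0.27 and 0.37. None of 6 tested genes of lipid droplets and lipolysis passed either, and Lipe (-0.13 and -0.30), Plin3 (-0.07 and -0.32) and Abhd5 (0.09 and 0.14) were close to 0. Of 9 transcription factors 2 fell, against 2.25% of all genes. The bile acid receptor gene Nr1h4 fell by 1.07 ± 0.21 (limma, adjusted p = 0.00848) and Pparg by 0.91 ± 0.21 (adjusted p = 0.0231). Creb3l3, a factor of Apoa4 and other fat-induced genes, differed by -0.44 and -1.16 and did not pass (-0.80 ± 0.23, adjusted p = 0.074).

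**Figure D4:**
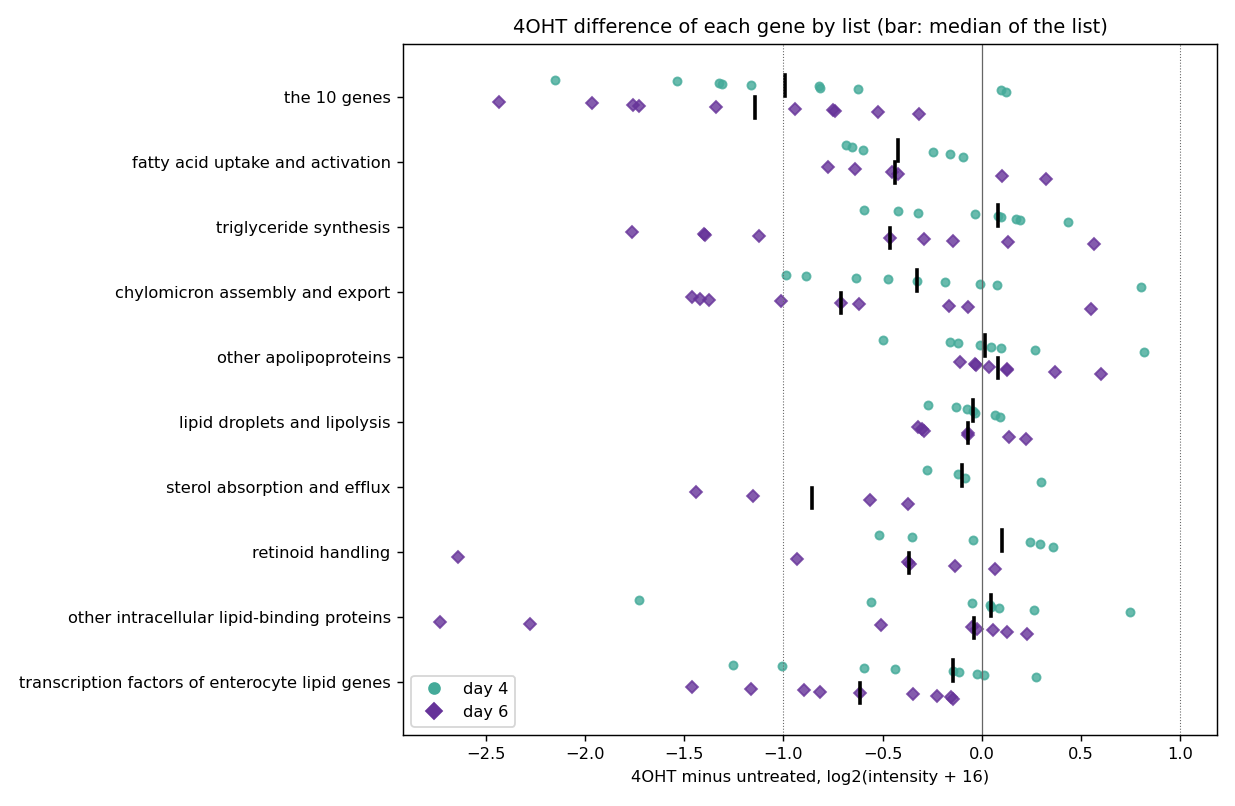
Difference between 4OHT-treated and untreated organoids for each measured gene of the 10 and of 9 further lists, on log2(intensity + 16), with day 4 as green circles and day 6 as purple diamonds; each point is 1 gene, 1 array against 1, the black bar is the median of the list, and dotted lines mark 2-fold. The medians of the 10 genes are -0.99 and -1.14, and those of lipid droplet genes and other apolipoproteins lie between -0.07 and 0.08.

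The 5 other genes whose 4 values ran closest to the median profile of the tested members, by Euclidean distance of centred log2 values over the 4 arrays, were Acat1, a mitochondrial thiolase (0.10), Alpi, the alkaline phosphatase of the brush border (0.12), Krcc1 (0.15), Akap7 (0.16) and Emp1 (0.18). Among the members, Dgat1 (0.26), Apoa1 (0.42) and Apoc3 (0.48) ran closest to it, and Mttp (1.46) and Rbp2 (2.11) farthest. With 4 points per gene this is a description only.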

How the data were processed

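The authors deposited linear probe-set intensities, 1 value per probe set and array. Per the labels' protocols, biotin-labelled copy RNA was made by a 3' labelling kit. Background correction, normalization and summarisation are not given in the sources used here. Of the probe sets with 1 gene symbol, the one with the highest mean log2(intensity + 16) stood for each of 18193 genes; those that reached 20.9 on any array were tested. Differences are 1 array against 1, called at 2-fold. limma 3.58.1 (R 4.3.3) fitted 4OHT and day as additive terms, with a threshold of 0.05 on adjusted p. The prior SD was 0.215, with 15.2 prior degrees of freedom. The fit was also run on data simulated from its own prior, with the same 4OHT effect on both days. That run is therefore no check of the p-values given here. No label says that the arrays are separate cultures. The p-values rest on how far the days disagree, mostly as pooled over all genes, and not on the spread of replicate cultures. That disagreement can include technical spread. Named genes are the 10 genes, Apc, the 5 closest in pattern and, per list, up to 3 genes of 1 direction on both days, ranked by the weaker day. The genes and lists were chosen with earlier results of these data known. Some listed genes are not analysed here. Promoters are RefSeq's (GRCm38.p6), found for 8 of the 10 genes, and motifs were chosen with the sequences known. Alternatives changed the filter, probe sets, scaling, pseudocount, thresholds, day term and arrays.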

Additional observations from a re-analysis of the deposited data

Results flagged for a closer look

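Apob, on its brightest probe set, differed with 4OHT by 0.10 at day 4 and by -1.76 at day 6, so that the single array pairs of the days lay on opposite sides of 0; the difference was not tested, and the dim probe set of Apob was lower on both days. Cd36 lay on opposite sides too, at 0.12 at day 4 and -0.52 at day 6. Between the days it was higher by 0.19 in untreated organoids and differed by -0.45 in 4OHT-treated ones. These differences of Cd36 were not tested either, and all of its intensities are under the level filter.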

How the results depend on the processing

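The shares of all genes given above for 2-fold differences hold at the main pseudocount only. No share of all genes is given here for fold counts at other thresholds or pseudocounts. Those counts, of the 10 genes and of the 57 tested list genes, therefore have no background to be read against. Of the 10 genes, 3 were 2-fold lower at day 4 with a pseudocount of 64, 8 at 1.5-fold and 1 at 3-fold; at day 6 it was 8 at 1.5-fold, and 3 where all probe sets of a gene past the filter had to agree. That demand left 4 genes 2-fold higher at day 6 in the 4OHT arm, as did 3-fold, and 1 gene with a 2-fold lower 4OHT difference at day 6 than at day 4. The last count was also 1 with the mean of all probe sets, a pseudocount of 1 or quantile normalization. On single other probe sets the day 6 minus day 4 difference turned to -0.0065 (untreated) and -0.0579 (4OHT) for Apob, to -0.0749 (4OHT) for Dgat1 and to -0.10 (4OHT) for Fabp1, the last 2 also without the _x_at, _s_at and _a_at kinds. By limma's test over both days, 3 of the 10 fell where all probe sets had to pass, under their mean or with a pseudocount of 1, and 0 when low genes were kept in, when 64 was added or when the day term was dropped. Leaving out each array in turn, with no day term, left 0 to 1 (unadjusted p under 0.05 in 0, 7, 8 and 1 of the 10 without the 4OHT array of day 4, that of day 6, the untreated array of day 4 and that of day 6). The differences then ran from -2.12 to 0.068 for Apoa1 (the latter without the 4OHT array of day 4), from -2.51 to 0.852 for Apob (without the untreated array of day 6) and from -1.95 to 0.382 for Fabp2 (without the 4OHT array of day 4; 0.35 without the untreated array of day 6); in these fits the days are not balanced between the arms. Of the 57 tested list genes, 5 (pseudocount 1), 1 (pseudocount 64), 11 (1.5-fold) and 1 (3-fold) were lower at day 4, and 9 (pseudocount 64), 23 (1.5-fold) and 4 (3-fold) at day 6. By the test 3 fell with every probe set or the filter on the mean, 4 under the mean of all probe sets, 7 without the 3 kinds of probe set, 1 with a pseudocount of 1 and 0 without the filter or with a pseudocount of 64. Over all genes, the 297 that fell and 128 that rose became 134 and 39 under the mean of all probe sets, 183 and 62 with the filter on the mean, 40 and 7 with a pseudocount of 1, and 0 with low genes kept in, with 64 added or with no day term. Abhd5 turned to -0.0221 with the mean of its probe sets. The cause was not tested for any of these. No pairing by replicate was possible because the labels give no replicate numbers. The day term is the block that compares the arms within each day. The limits are the single array per group, the unstated scaling between the days and the dim signals of Rbp2 and Cd36.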
